A study of Caenorhabditis elegans with 32 samples.

Results

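Major sperm protein (msp) genes were followed in poly(A) RNA of whole Caenorhabditis elegans worms. The members are the genes whose symbol is msp with a number and whose estimated counts sum to at least 100 over the 32 columns. Of 35 such symbols 30 are members, out of 46904 genes in the table. The member with the fewest counts is msp-42, with 249, and the symbol just outside is msp-52, with 7.84. The other symbols left out are msp-32, msp-37, msp-58 and msp-74, with 0.96, 2, 0 and 2 estimated counts.

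Major sperm proteins are small proteins made during spermatogenesis, where they fill the fibrous bodies of developing sperm. In the mature sperm cell they polymerize into the filaments that move its pseudopod, and MSP released from sperm is the signal that starts oocyte maturation and ovulation. Hermaphrodites make sperm for a limited time late in larval life and then switch to oocytes, so in whole worms msp RNA depends on how much spermatogenesis the sampled animals hold. HRDE-1 is an Argonaute of germ cell nuclei needed for the inheritance of gene silencing by small RNAs.

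The 16 groups of 2 libraries are hrde-1 hypoxia, hrde-1 normoxia, WT hypoxia and WT normoxia worms in each of the generations P0, F1, F2 and F3. The labels name the mutant only as hrde-1 and give no allele. All worms were raised at 20 °C with food, and the labels give 3 generations before exposure. The stressed worms were L4 larvae held at 0.1% oxygen for 16 h before they were put back at about 20% oxygen. The labels do not say whether F1 to F3 worms were exposed themselves, or at which age any worms were harvested. In F1 to F3, hypoxia therefore names the labelled group below, not a known exposure of its worms. The series asks how the transcriptome of either strain changes over these generations with hypoxia.

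Libraries held 9722580 to 16555982 estimated counts. In F2 WT normoxia each column equals a mean over 3 values, and 2 of them are the like-numbered WT normoxia columns of F1 and F3. What is left after taking those 2 out is called the remainder here, and results that use this group are given with both. TMM scaling factors, which correct library sizes for a few dominant genes, were 1.36 and 1.40 in P0 WT normoxia and 0.799 to 1.23 elsewhere. The labels do not say that the 2 libraries of a group are from separate worm cultures. The p-values therefore measure the spread between these samples only, which may be technical. In RNA of whole worms, fewer cells of a type and less RNA per cell cannot be told apart.

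The members lie on 2 chromosomes, 13 on chromosome II and 17 on chromosome IV (WBcel235 annotation). They form 4 clusters when a gap of over 500000 bp separates clusters. The first holds 10 genes on chromosome II at 4785898 to 5200180, from msp-3 to msp-50. The second holds msp-63, msp-142 and msp-64 on chromosome II at 5797065 to 5810330. The third holds 8 genes on chromosome IV at 5055631 to 5316906, among them msp-57, msp-19, msp-51, msp-113 and msp-59. The fourth holds 9 genes on chromosome IV at 9689015 to 10143740, among them msp-76, msp-81, msp-77 and msp-36. Of the 30 members 28 are annotated as protein-coding, each with a single exon of 384 bases. The others, msp-42 and msp-71, are annotated as pseudogenes.

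Nearly identical copies share reads, and estimated counts divide such reads among them. Of the members' values above 0, 79.2% were not whole numbers, against 5.05% of those of all other genes. The share was 100% for msp-19, msp-59 and msp-113, and 0% for msp-42, 3.6% for msp-63 and 6.7% for msp-76. Apart from these 3, values of single copies are therefore uncertain through divided reads. The sum over members does not change with how reads are divided among them. msp-42 and msp-63 are uncertain through low counts instead, with totals of 249 and 389. Here msp-76 stands for a well-expressed copy with few divided reads, and it was chosen for that after its values were seen.

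Levels are given in CPM, counts scaled to the TMM-corrected library size. Summed over the 30 members, P0 had 364 and 247 CPM in hrde-1 hypoxia, 213 and 316 in hrde-1 normoxia, 119.8 and 129 in WT hypoxia, and 21.6 and 37.7 in WT normoxia. F1 had 1352 and 1328 CPM in hrde-1 hypoxia, 278 and 331 in hrde-1 normoxia, 994 and 1166 in WT hypoxia, and 930 and 1062 in WT normoxia. All P0 libraries were below every F1 library except those of hrde-1 normoxia, which stayed within the range of P0 hrde-1 worms. F2 had 1185 and 1816 CPM in hrde-1 hypoxia, 1598 and 880 in hrde-1 normoxia, and 554 and 460 in WT hypoxia, against 1107 and 956 in the deposited WT normoxia columns and 823 and 466 in their remainder. F3 had 1439 and 2097 CPM in hrde-1 hypoxia, 595 and 1467 in hrde-1 normoxia, 583 and 1068 in WT hypoxia, and 1505 and 1252 in WT normoxia. In F2 and F3 the libraries of a group differed by up to 2.47 times, in F3 hrde-1 normoxia.

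The highest group mean, that of F3 hrde-1 hypoxia, was 59.6 times the lowest, that of P0 WT normoxia. In order of mean, P0 WT normoxia was lowest and separate from P0 WT hypoxia, which was separate from P0 hrde-1 normoxia. P0 hrde-1 normoxia, F1 hrde-1 normoxia and P0 hrde-1 hypoxia overlapped, and F2 WT hypoxia stood alone above them. From F3 WT hypoxia upwards each group overlapped the next, so neighbours among these 10 groups do not differ beyond their spread. As a share of all counts, the members made up 0.00294% in the lowest library and 0.174% in the highest.

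**Figure D1:**
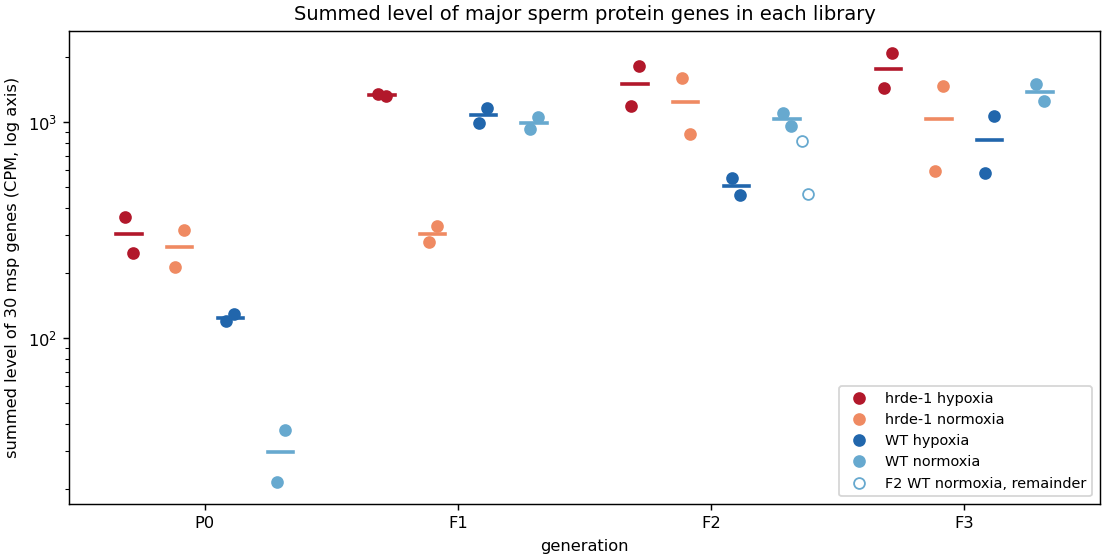
Summed level of the 30 msp genes in CPM on a log axis, by generation, for hrde-1 hypoxia, hrde-1 normoxia, WT hypoxia and WT normoxia. Points are libraries, bars are means of 2 and open points are the F2 WT normoxia remainder; P0 WT normoxia lies lowest, at 21.6 and 37.7 CPM, and F1 hrde-1 normoxia, at 278 and 331, lies far below the other F1 groups.

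Per kilobase of exon, the highest mean levels over the 30 libraries outside F2 WT normoxia were those of msp-81 with 149 CPM per kb, msp-19 with 131, msp-59 with 125 and msp-113 with 121. All 4 lie on chromosome IV. Another 23 members stood between 26.1 CPM per kb, for msp-142, and 107, for msp-56. The pseudogenes msp-71 and msp-42 reached 6.24 and 1.77 CPM per kb, and msp-63, which is annotated as protein-coding, only 2.49. Among the 27 members without these 3, levels spanned 5.71 times.

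For msp-81, P0 had 25.6 and 19.1 CPM in hrde-1 hypoxia, 15.5 and 24.4 in hrde-1 normoxia, 7.22 and 9.36 in WT hypoxia, and 1.91 and 2.07 in WT normoxia. In F1 it had 95.2 and 98.2 CPM in hrde-1 hypoxia, 18.2 and 24.9 in hrde-1 normoxia, 70.2 and 65.1 in WT hypoxia, and 63 and 61.5 in WT normoxia. In F3 it had 89.7 and 160 CPM in hrde-1 hypoxia, 32.3 and 114 in hrde-1 normoxia, 43.4 and 79.7 in WT hypoxia, and 92.6 and 83.4 in WT normoxia. The F1 groups thus fell into a low pair of libraries, those of hrde-1 normoxia, and 6 higher ones, while in F3 all groups but WT normoxia were wide. In P0 WT normoxia msp-19, msp-59 and msp-113 had 0.899 to 3.24 CPM, and in F3 hrde-1 hypoxia 77.5 to 129, so they spanned a range like that of msp-81.

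Over the 30 libraries, log2 CPM (with 0.5 added) of 27 members followed the median of the other members with Pearson's r of 0.964 to 0.996. These points share the large step between P0 and later libraries and, for most copies, reads, so r describes the table and nothing more. The highest values, 0.996, belonged to msp-77, msp-113 and msp-56, and the lowest to msp-42 with 0.71, msp-63 with 0.81 and msp-71 with 0.87. These 3 are also the members with the fewest counts. msp-42 had 0 CPM in both P0 WT normoxia libraries and in both F2 WT hypoxia libraries, and at most 2.15 CPM elsewhere. msp-71 had 0.112 and 0.168 CPM in P0 WT normoxia and reached 9.76 in an F3 hrde-1 hypoxia library. msp-63 peaked in F1 WT hypoxia, with 1.57 and 3.52 CPM, against 1.12 and 1.04 in F1 hrde-1 hypoxia.

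**Figure D2:**
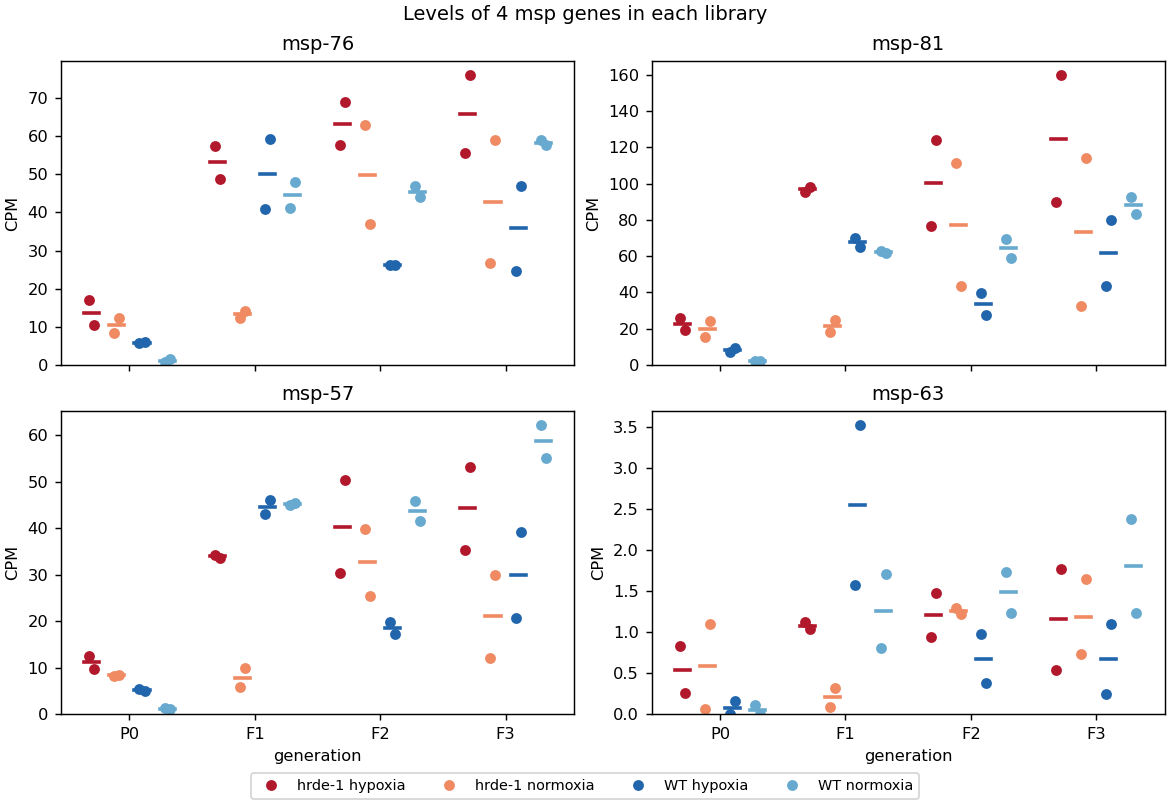
Levels in CPM of msp-76, msp-81, msp-57 and msp-63 by generation, for hrde-1 hypoxia, hrde-1 normoxia, WT hypoxia and WT normoxia. Points are libraries and bars are means of 2; msp-76 and msp-81 share their pattern, msp-57 is highest in F3 WT normoxia at 62.2 and 55.1 CPM, and msp-63 stays at or below 3.52 CPM.

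The genes outside the family most like it, by r with the median of the members over the same 30 libraries, were msd-2 (r = 0.993), gipc-2 (0.992), ssq-2 (0.99), ssq-1 (0.99) and Y69E1A.2 (0.989). msd-2 encodes a small protein with an MSP domain and the ssq genes are a sperm-specific class. Of 15506 other genes tested, 187 had r above 0.95.

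In WT worms of P0, msp RNA was higher with hypoxia. For msp-76, hypoxia libraries had 5.7 and 5.95 CPM, against 0.675 and 1.45 in normoxia. For msp-31 they had 3.25 and 4.04 CPM, against 0.112 and 0.671, and for msp-36 5.85 and 6.66, against 0.843 and 1.51. In each of these genes both hypoxia libraries lay above both normoxia libraries. Of the 30 members 26 rose and 0 fell at an adjusted p under 0.05 in edgeR's quasi-likelihood test, where 19.1% of all genes tested rose. The median log2 fold change of the members was 2.05 (2.05 also without msp-42, which has no fold at 3 counts against 0), against -0.14 over all genes. The log2 fold change was 2.44 ± 0.46 (SE) for msp-76, with an adjusted p of 0.00048 by edgeR with Benjamini-Hochberg adjustment. It was 3.18 ± 0.61 for msp-31 and 2.40 ± 0.47 for msp-36. The members not called were msp-142 (1.19), msp-71 (0.67), msp-63, at 2 counts against 2, and msp-42. Without the first P0 WT normoxia library 16 members rose.

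In later generations of WT the msp genes were not higher with hypoxia. In F1, msp-76 had 41 and 59.3 CPM in hypoxia, against 41.2 and 48 in normoxia, and the groups overlapped. There 0 members were called by edgeR, 0 had an unadjusted p under 0.05 and DESeq2 called 0, where 13.9% of all genes were called. The F1 median was 0.12. In F3, msp-76 had 24.6 and 47 CPM in hypoxia, against 59.1 and 57.6 in normoxia, without overlap. All 30 members had a negative log2 fold change in F3, with a median of -0.79 against -0.14 over all genes, but 0 were called by edgeR or DESeq2, 13 had an unadjusted p under 0.05, and 6.62% of all genes were called. Fitted on these 4 libraries alone, 5 members were called in F3.

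In F2 WT the result depended on which normoxia values were used. For msp-51, hypoxia had 27.4 and 18.5 CPM, against 54 and 50.9 in the deposited normoxia columns and 37.3 and 20.8 in the remainder. Hypoxia lay below the deposited columns and overlapped the remainder. With the deposited columns msp-51, msp-57, msp-40 and msp-64 fell, 4 of 30 members where 6.62% of all genes fell, and 25 members had an unadjusted p under 0.05. The median was -1.05 against -0.18 over all genes, and for msp-51 the log2 fold change was -1.19 ± 0.34 (SE; edgeR adjusted p 0.0363). These columns contain the F1 and F3 WT normoxia libraries again, so they are not independent of them. With the remainder 0 members were called, 0 had an unadjusted p under 0.05, the median was -0.37, and 0% of all genes were called. Leaving out any of the 4 libraries also left 0 calls, while DESeq2 called 9, a fit with no filter 8, and a fit of the 4 libraries alone 28.

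In hrde-1 worms the difference with hypoxia was seen in F1. For msp-36, F1 hypoxia had 67.6 and 62.9 CPM, against 11 and 13.5 in normoxia. For msp-77 it had 54.9 and 52.2 CPM, against 11.5 and 11.5, and for msp-40 50.5 and 51.3, against 10.1 and 10.2. In these genes the hypoxia libraries lay above all F1 WT libraries, and the normoxia libraries lay within the range of P0 hrde-1 worms. Of the 30 members 27 rose and 0 fell, where 7.67% of all genes rose, with a median log2 fold change of 2.15 against 0.05 over all genes. msp-36 rose by 2.42 ± 0.39 (SE; edgeR adjusted p 0.00336) and msp-77 by 2.22 ± 0.36. The 3 members not called were msp-42, with 27 counts against 2 and a ratio of 13.5 (95% counting interval 3.40 to 117.5), msp-71 (2.10) and msp-63 (2.38). Leaving out either normoxia library left 0 calls, and leaving out either hypoxia library left 24 and 26.

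The other generations of hrde-1 gave no calls. In P0, msp-76 had 17 and 10.4 CPM in hypoxia, against 8.46 and 12.2 in normoxia, in F2 57.7 and 68.9 against 62.9 and 36.9, and in F3 55.6 and 76 against 26.8 and 58.9. The groups overlapped in all 3 generations. In P0 edgeR and DESeq2 called 0 members and 0 had an unadjusted p under 0.05, where 5.84% of all genes were called. In F2 the same 3 counts were 0, and 0% of all genes were called. In F3 0 members were called by either tool, 10 had an unadjusted p under 0.05 in edgeR and the median was 0.78, where 0.0129% of all genes were called. Without the second F3 hrde-1 normoxia library, in which the members sum to 1467 CPM, 26 members rose in F3.

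The difference of the hypoxia effect between strains was tested itself. In F1, 23 of 30 members had a larger effect in hrde-1 than in WT and 0 a smaller one, where 8.72% of all genes had a larger one. The median difference was 2.04 on the log2 scale, against 0.27 over all genes. For msp-142, which had 18.4 and 14.2 CPM in F1 hrde-1 hypoxia and 2.83 and 4.24 in hrde-1 normoxia, against 9.53 and 12.1 in WT hypoxia and 12.4 and 13.1 in WT normoxia, the difference was 2.45 ± 0.53 (SE; edgeR adjusted p 0.0089). The hrde-1 normoxia libraries lay below all 4 WT libraries and the hrde-1 hypoxia libraries above them. Leaving out 1 of the 8 libraries left 0 calls without the first hrde-1 normoxia library and 2 to 9 without another.

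In P0 the difference had the opposite sign in all 30 members, with a median of -1.84. There 0 members were called by edgeR, with a lowest adjusted p of 0.0512, 23 had an unadjusted p under 0.05, DESeq2 called 13 and 0.328% of all genes were called. Without the second P0 hrde-1 normoxia library 2 were called. In F2 the median was 1.31 with the deposited columns and 0.65 with the remainder. With the columns edgeR and DESeq2 called 0 members, 21 had an unadjusted p under 0.05, and 0.225% of all genes were called, and 1 member was called without the first F2 hrde-1 normoxia library. With the remainder 0 were called, 0 had an unadjusted p under 0.05, and 0% of all genes were called. In F3 the median was 1.55, 0 were called by edgeR, 23 had an unadjusted p under 0.05, DESeq2 called 6 and 0.657% of all genes were called. Without the second F3 hrde-1 normoxia library 28 members were called in F3.

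**Figure D3:**
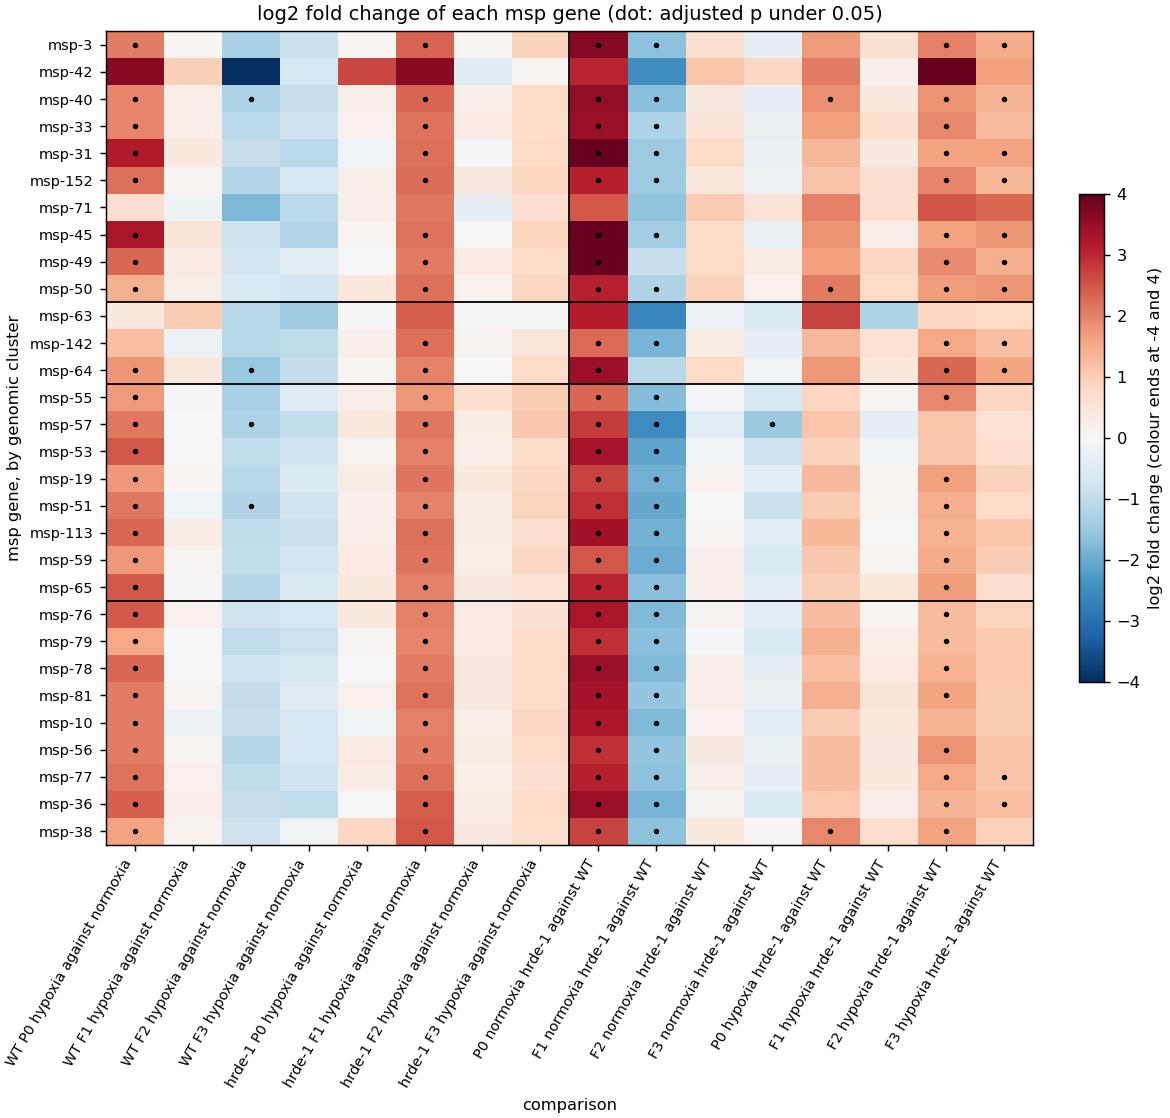
log2 fold change of each of the 30 msp genes (rows, by genomic cluster, separated by lines) in the 8 comparisons of hypoxia with normoxia (left) and the 8 of hrde-1 with WT (right), from edgeR. Dots mark an adjusted p under 0.05, and whole columns share a colour, as with 27 of 30 higher in P0 normoxia hrde-1 and 25 of 30 lower in F1 normoxia hrde-1.

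Between the strains, msp RNA in normoxia differed in opposite directions in P0 and F1. In P0, msp-31 had 6.72 and 13.6 CPM in hrde-1 worms, against 0.112 and 0.671 in WT worms. For msp-40 the P0 levels were 8.8 and 11.8 CPM in hrde-1, against 0.618 and 1.12 in WT. In F1, msp-57 had 5.93 and 9.88 CPM in hrde-1 worms, against 44.9 and 45.4 in WT worms, and msp-51 had 12.2 and 14.3, against 47 and 62.6. The strains did not overlap in any of these cases. These comparisons share the normoxia libraries with the comparisons of hypoxia above.

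In P0 normoxia 27 of 30 members rose in hrde-1 and 0 fell, where 15.2% of all genes rose. The median log2 fold change was 3.13, or 3.23 with low-count members at their counting ratio, against -0.06 over all genes. msp-31 rose by 4.65 ± 0.57 (SE; edgeR adjusted p 1.46e-05) and msp-40 by 3.55 ± 0.47. Each fit without 1 of the 4 libraries also called 27, while a fit of the 4 libraries alone called 4. In F1 normoxia 25 members fell and 0 rose, where 22.2% of all genes fell, and the median was -1.68 against -0.24. msp-57 fell by 2.52 ± 0.38 (SE; edgeR adjusted p 9.59e-05) and msp-51 by 2.05 ± 0.36. msp-49 (-0.92), msp-64 (-1.11), msp-71, msp-63 and msp-42 were not called, the last at 2 counts in hrde-1 against 14 in WT. Without the first F1 hrde-1 normoxia library 12 members fell.

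In F2 and F3 normoxia few members were called. In F2, msp-76 had 62.9 and 36.9 CPM in hrde-1, against 46.9 and 44 in the WT columns and 38.7 and 22.2 in their remainder, and the hrde-1 libraries overlapped both. edgeR and DESeq2 called 0 members in F2 and 1 had an unadjusted p under 0.05, where 6.06% of all genes were called, and the median was 0.25. With the remainder msp-3 and msp-31 rose, where 2.9% of all genes rose, 19 members had an unadjusted p under 0.05, and the median was 0.94. In F3, msp-57 alone fell in hrde-1, 1 of 30 members where 4.42% of all genes fell, by 1.48 ± 0.36 on the log2 scale (edgeR adjusted p 0.0112). It had 12.1 and 30 CPM in hrde-1, against 62.2 and 55.1 in WT, without overlap. No member was called in F3 in the fit of the 4 libraries alone, nor without the first hrde-1 library or either WT library, while 12 fell without the second hrde-1 library.

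In the hypoxia groups all 30 members had a positive log2 fold change, hrde-1 over WT, in P0, F2 and F3. In F2, msp-64 had 22.8 and 40.3 CPM in hrde-1, against 6.13 and 6.63 in WT, and msp-152 had 58.1 and 87.3, against 21.6 and 15.6. The strains did not overlap in either gene. Here 24 of 30 members rose and 0 fell, where 4.99% of all genes rose, with a median of 1.60 against 0.07. msp-64 rose by 2.31 ± 0.47 (SE; edgeR adjusted p 0.00561). msp-42 had 16 counts in hrde-1 and 0 in WT, at least 5.68-fold higher in hrde-1 with the WT group set to a floor of 3 counts in all, and was not called. Without the second F2 hrde-1 hypoxia library, or the second WT one, 0 members rose, and without the first WT one 1 rose.

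In F3 hypoxia 11 members rose and 0 fell, where 5.18% of all genes rose, with a median of 1.13 against 0.08. msp-50 had 41.4 and 52.8 CPM in hrde-1, against 9.44 and 18.5 in WT, without overlap, and rose by 1.76 ± 0.35 (adjusted p 0.00431 in edgeR's test). DESeq2 called 17 members; without the first F3 WT hypoxia library or the second hrde-1 one 0 rose, and without the second WT one 7 rose. In P0 hypoxia msp-50, msp-40 and msp-38 rose, 3 members where 1.5% of all genes rose, and the median was 1.31 against 0.03. msp-50 had 9.55 and 6.55 CPM there in hrde-1, against 1.95 and 1.82 in WT, and rose by 2.09 ± 0.41 (adjusted p 0.00431 in edgeR's test). DESeq2 called 11 in P0, a fit of the 4 libraries alone 21, and leaving out a library other than the second hrde-1 one 0. In F1 hypoxia 0 were called by edgeR or DESeq2, 1 had an unadjusted p under 0.05, the median was 0.36, and 1.98% of all genes were called. A fit of the 4 F1 libraries alone called 8.

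Taken as a mean, the later generations were above P0 in both strains and both treatments. In hrde-1 normoxia, though, F1 with 278 and 331 CPM overlapped P0 with 213 and 316, and only F2 and F3 lay above it. In WT normoxia the members summed to a mean of 1187 CPM in F1 and F3, against 29.7 in P0, a ratio of 40.02, and all 30 rose, where 22.9% of all genes rose. In WT hypoxia they summed to 804 CPM over F1 to F3, against 124 in P0, and 27 rose, where 7.26% of all genes rose. In hrde-1 normoxia the sums were 858 and 265 CPM with 27 higher, where 10.1% of all genes rose, and in hrde-1 hypoxia 1536 and 305 CPM with 28 higher, where 11.4% rose. No member fell in any of the 4. Median log2 fold changes were 5.32 in WT normoxia, 2.65 in WT hypoxia, 1.45 in hrde-1 normoxia and 2.31 in hrde-1 hypoxia.

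For msp-51 the later WT normoxia libraries had 47, 62.6, 74.4 and 64.7 CPM, against 1.52 and 1.56 in P0, and the log2 fold change was 5.32 ± 0.41 (SE; edgeR adjusted p 2.48e-08). For msp-50 the rise was 3.05 ± 0.37 in WT hypoxia, 1.73 ± 0.32 in hrde-1 normoxia and 2.35 ± 0.33 in hrde-1 hypoxia. With F1 left out the counts were 30, 27, 29 and 28. The count in hrde-1 normoxia was 15 without the first P0 library and 0 when its 8 libraries were fitted alone. Markers of other tissues differed as well. Over all genes 22.9% rose in WT normoxia, 7.26% in WT hypoxia, 10.1% in hrde-1 normoxia and 11.4% in hrde-1 hypoxia. Of 10 muscle markers 7 rose in WT normoxia, 10 in WT hypoxia, 9 in hrde-1 normoxia and 10 in hrde-1 hypoxia, and 0 fell. In WT normoxia 14 of 16 oocyte and 10 of 15 germline markers rose. There 5 of 10 neuron markers fell, and 3 of 17 cuticle markers rose and 6 fell. The neuron and cuticle medians there were -0.83 and -1.26, against -0.08 over all genes. In hrde-1 normoxia 8 neuron and 9 cuticle markers fell, and 2 cuticle, 2 oocyte and 3 germline markers rose. The neuron and cuticle medians there were -0.95 and -1.70, against -0.06 over all genes. In hrde-1 hypoxia 2 oocyte markers rose and 5 fell, with a median of -0.46 against 0 over all genes. The part of these markers in the msp results was not tested. Generation goes together with anything else that differed between harvests, and these cannot be told apart.

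Most members had shares of the msp counts that overlapped between the strains, and in F1 to F3 2 of the 30 did not. Of the summed msp counts, msp-57 made up a median of 2.53% in hrde-1 libraries of F1 to F3 (2.04% to 2.98%, n = 12), against 4.04% in WT libraries (3.55% to 4.83%, n = 10, without F2 WT normoxia). The strains did not overlap there, but they did in P0, with 2.67% to 3.92% in hrde-1 and 2.81% to 6.25% in WT. msp-49 went the other way, with a median of 3.44% in hrde-1 (3.09% to 4.07%), against 2.44% in WT (1.97% to 2.96%). In P0 its shares overlapped too, with 2.61% to 4.36% in hrde-1 and 1.93% to 2.71% in WT. msp-57 and msp-49 were the only 2 of the 30 members whose shares did not overlap in F1 to F3. Both were singled out after their values were seen. Since copies share reads, such shares also depend on how reads were divided.

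Shares of 2 of the 4 clusters did not overlap between the strains in F1 to F3. The chromosome II cluster from msp-3 to msp-50 made up 24.1% to 29.5% of msp counts in the 16 hrde-1 libraries, against 14.8% to 23% in 14 WT libraries, with no overlap in any generation. The chromosome IV cluster with msp-57 and msp-19 made up 29.7% to 33% in hrde-1 libraries of F1 to F3, against 33.4% to 38.6% in WT. In P0 this cluster made up 31.85% to 34.35% in hrde-1 and 38.4% to 40.89% in WT, also without overlap. Pooled over all generations its shares overlapped. The cluster with msp-142 overlapped, with 2.95% to 4.7% in hrde-1 and 2.5% to 3.66% in WT in F1 to F3. The cluster with msp-76 and msp-81 also overlapped between strains, with F1 to F3 medians of 38.8% in hrde-1 and 38.9% in WT. These are descriptions, with no test of the shares.

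**Figure D4:**
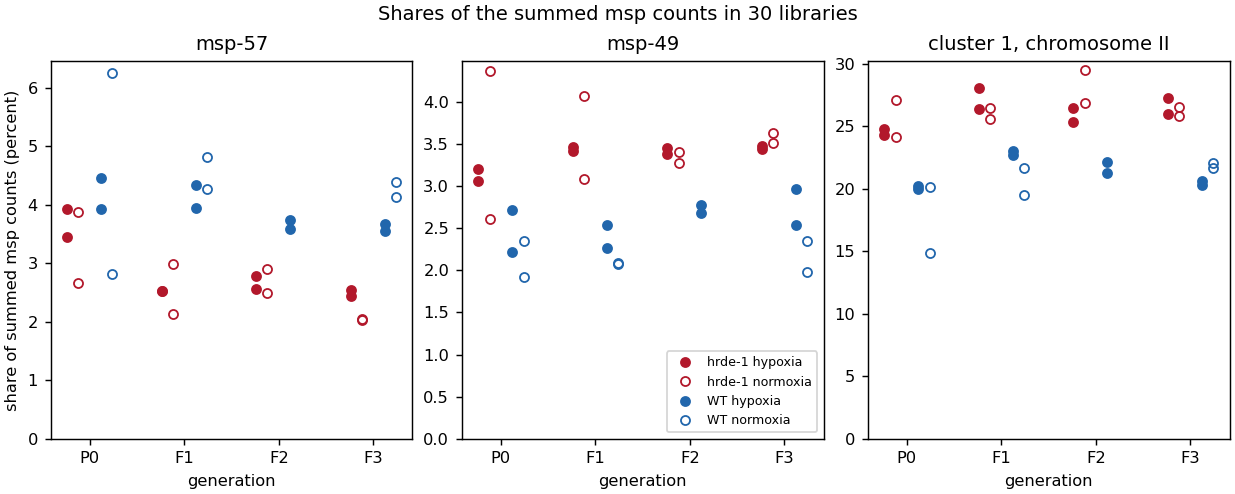
Share, in percent, of the summed msp counts taken by msp-57, by msp-49 and by the chromosome II cluster from msp-3 to msp-50, by generation, with hrde-1 libraries left of WT libraries (filled hypoxia, open normoxia, F2 WT normoxia left out). In F1 to F3 the msp-57 share is 2.04% to 2.98% in hrde-1 and 3.55% to 4.83% in WT, and the cluster's share is higher in hrde-1 in every generation.

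Other genes of sperm moved with the msp genes. MSP-domain relatives (16 genes tested, msd and ssp genes and others) had 8 higher and 0 lower with hypoxia in P0 WT and 11 and 0 with hypoxia in F1 hrde-1. In hrde-1 against WT they had 13 and 0 in P0 normoxia, 1 and 9 in F1 normoxia, and 10 and 0 in F2 hypoxia. Over all genes 19.1% rose with hypoxia in P0 WT and 7.67% in F1 hrde-1. Between the strains 15.2% rose in P0 normoxia, 22.2% fell in F1 normoxia and 4.99% rose in F2 hypoxia. msd-2 had 40.1 and 35 CPM in F1 hrde-1 hypoxia, against 8.15 and 9.56 in F1 hrde-1 normoxia, without overlap. Genes of fibrous body assembly (9 tested) had 3 and 0, 6 and 0, 4 and 0, 1 and 6, and 4 and 0 in the same 5 comparisons. Among them spe-4, which encodes a presenilin of the membranous organelles that carry fibrous bodies, had 12.6 and 10.4 CPM in F1 hrde-1 hypoxia, against 1.42 and 1.3 in F1 hrde-1 normoxia. It rose there by 3.07 ± 0.56 (adjusted p 0.00415 in edgeR's test), and in F1 normoxia it fell by 3.25 ± 0.56 in hrde-1 against WT.

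Genes of other sperm functions (26 tested) had 10 higher and 0 lower, 12 and 0, 10 and 0, 2 and 12, and 9 and 0 in these comparisons. gsp-3, a protein phosphatase of sperm, had 5.38 and 10.4 CPM in P0 hrde-1 normoxia, against 0.337 and 0.28 in P0 WT normoxia. spe-41, a calcium channel of sperm, ran against the msp genes in F1 normoxia, with 36.6 and 32.7 CPM in hrde-1, against 12.4 and 12.8 in WT. It rose there by 1.46 ± 0.41 (adjusted p 0.0102 in edgeR's test). The other gene of this list that rose there was zipt-7.1, a zinc transporter needed for sperm activation, with 0.59 ± 0.18.

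Genes upstream of sperm gene expression mostly rose in both P0 comparisons and were mixed in F1 normoxia. Of 16 genes of sperm fate and transcription, 10 rose and 1 fell with hypoxia in P0 WT, where 19.1% of all genes rose. With hypoxia in F1 hrde-1, 2 of the 16 rose, where 7.67% of all genes rose. In hrde-1 against WT 9 rose in P0 normoxia, 3 rose and 3 fell in F1 normoxia, and 2 rose in F2 hypoxia. Over all genes 15.2% rose in P0 normoxia, 22.2% fell in F1 normoxia and 4.99% rose in F2 hypoxia. The 2 that rose with hypoxia in F1 hrde-1 were alg-3 and alg-4, Argonautes that act during spermatogenesis. alg-3 had 41 and 36.4 CPM there, against 7.53 and 6.84 in F1 hrde-1 normoxia, and 6.32 and 6.63 in P0 hrde-1 normoxia, against 0.169 and 0.112 in P0 WT normoxia. spe-44, a regulator of sperm gene transcription, had 19.3 and 18 CPM in F1 hrde-1 hypoxia, against 15.9 and 16 in F1 hrde-1 normoxia. fog-1, which directs germ cells to the sperm fate, had 23.6 and 23.4 CPM, against 24.4 and 27.8.

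Genes that receive the MSP signal in oocytes and gonadal sheath (16 tested) were mixed, with 6 higher and 6 lower with hypoxia in P0 WT and 0 called with hypoxia in F1 hrde-1. In hrde-1 against WT 3 rose and 3 fell in P0 normoxia, 4 rose and 1 fell in F1 normoxia, and 0 were called in F2 hypoxia. Over all genes 19.1% rose with hypoxia in P0 WT and 7.67% in F1 hrde-1. Between the strains 15.2% rose in P0 normoxia, 22.2% fell in F1 normoxia and 4.99% rose in F2 hypoxia. vab-1, the Eph receptor that binds MSP, was not among the genes called in F1 normoxia. It had 238 and 211 CPM in F1 hrde-1 normoxia, against 163 and 175 in F1 WT normoxia. oma-1, which acts in oocyte maturation, had 427 and 381 CPM in P0 WT hypoxia, against 200.2 and 105 in P0 WT normoxia, and rose by 1.40 ± 0.24 (adjusted p 0.000201 in edgeR's test).

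**Figure D5:**
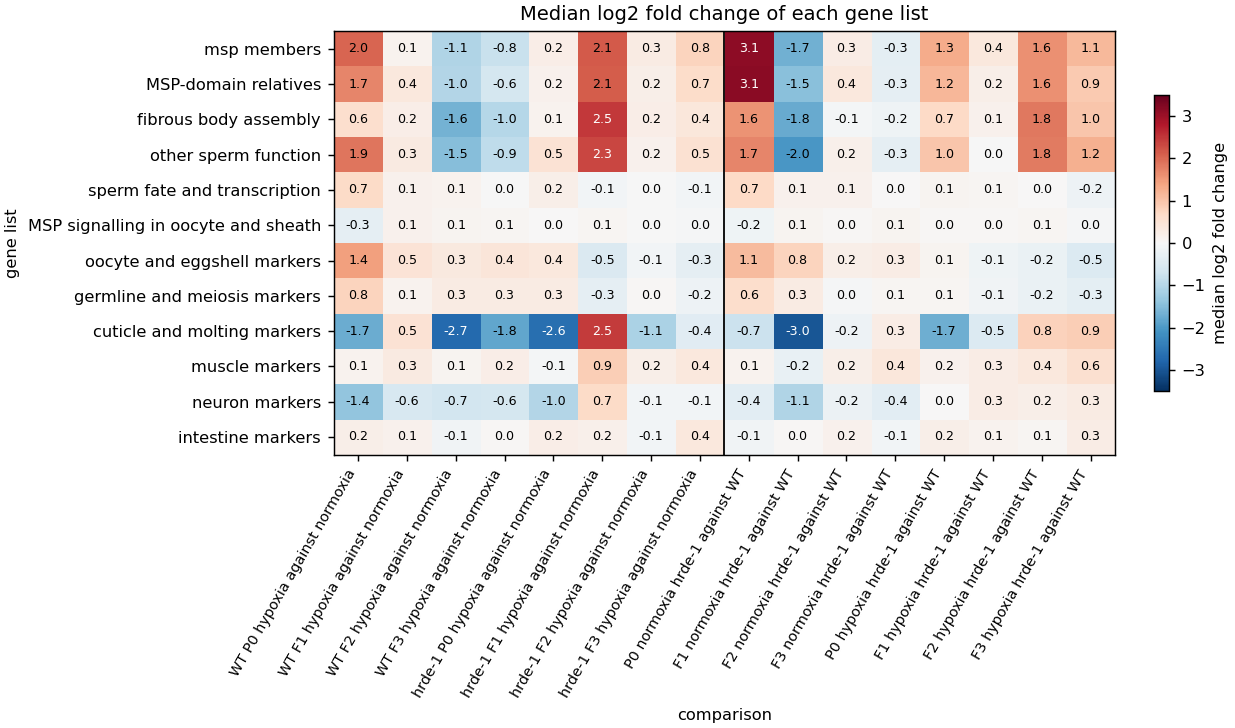
Median log2 fold change of the msp genes and 11 other gene lists (rows) in the 8 comparisons of hypoxia with normoxia (left) and the 8 of hrde-1 with WT (right), with values printed to 1 decimal. The 3 sperm lists under the msp genes carry the same colour as them in most columns, while cuticle and molting markers are also at -3.0 in F1 normoxia hrde-1 and 2.5 in hrde-1 F1 hypoxia.

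Markers of other tissues and of larval stage moved in most of the same comparisons. In hrde-1 against WT in F2 hypoxia, where 24 of 30 msp genes and 4.99% of all genes rose, 1 of 10 muscle markers rose. No oocyte, germline, cuticle, neuron or intestine marker was called there. The cuticle median there was 0.81 on the log2 scale, against 0.07 over all genes. With hypoxia in F1 hrde-1, where 7.67% of all genes rose, 6 of 17 cuticle and molting markers rose and 0 fell. There 8 of 10 muscle markers rose, while 0 of 16 oocyte and eggshell markers were called. Summed, the cuticle markers had 1739 and 1738 CPM in F1 hrde-1 hypoxia, against 714 and 730 in F1 hrde-1 normoxia. In hrde-1 against WT in F1 normoxia, 13 cuticle markers fell, 1 rose and 12 oocyte markers rose. Summed oocyte markers stood at 22088 and 22046 CPM in hrde-1, against 10745 and 12586 in WT. The cuticle and oocyte medians were -2.99 and 0.77 on the log2 scale, against -0.24 over all genes. There 5 of 10 neuron and 3 of 10 muscle markers fell, where 22.2% of all genes fell. The muscle median was -0.25 on the log2 scale, against -0.24 over all genes. Of 15 germline markers 5 rose and 1 fell, and of 10 intestine markers 4 rose and 4 fell. In both F1 comparisons the msp genes and the called cuticle markers moved mostly the same way.

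In P0 the pattern of markers was another. With hypoxia in P0 WT, where 19.1% of all genes rose, 15 of 16 oocyte markers and 12 of 15 germline markers rose. There 8 of 17 cuticle markers fell and 3 rose, and 9 of 10 neuron markers fell. The cuticle and neuron medians were -1.74 and -1.37 on the log2 scale, against -0.14 over all genes. Of 10 intestine markers 4 rose and 2 fell, and they summed to 61611 and 57066 CPM in P0 WT hypoxia, against 34835 and 31322 in P0 WT normoxia. In hrde-1 against WT in P0 normoxia, where 15.2% of all genes rose, 14 oocyte markers and 9 germline markers rose. There 2 cuticle markers rose and 0 fell, but the median of the 17 was -0.74 on the log2 scale, against -0.06 over all genes. Summed, the cuticle markers had 912 and 1399 CPM in P0 hrde-1 normoxia, against 1700 and 2265 in P0 WT normoxia, without overlap. The oocyte markers summed to 18383 and 17184 CPM in P0 WT hypoxia, against 6812 and 4634 in P0 WT normoxia. Their part, and that of the other markers, in the msp results was not tested.

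Of 6 male markers 4 were near 0. pkd-2, lov-1, trf-1 and try-5 stayed at or below 1.29 CPM in the 30 libraries, with pkd-2 at 0 in 10 of them, lov-1 in 15 and trf-1 in 12. plg-1 ranged from 0.978 to 11.5 CPM and mab-3 from 0 to 3.815, so a sum over the 6 weighs them unequally. The 6 markers together summed to 9.26 to 15.6 CPM in hrde-1 libraries, against 1.96 to 5.95 in WT libraries, without overlap. Most of the sum in P0 hrde-1 normoxia was plg-1, with 8.6 and 11.5 CPM in P0 hrde-1 normoxia, against 1.8 and 1.34 in P0 WT normoxia. mab-3 had 1.14 and 1.42 CPM there, against 0.225 and 0 in P0 WT normoxia. In F1 normoxia, where msp genes fell in hrde-1, plg-1 rose, with 8.77 and 9.88 CPM in hrde-1, against 2.24 and 1.63 in WT. Their part in the msp results was not tested.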

How the data were processed

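Values in the deposited table are estimated counts for each gene, not normalized by the authors. Bowtie2, RSEM, featureCounts, edgeR and cutadapt 2.5 are listed in the submitters' processing notes. The genome build is not given in the sources used here. Positions come from the WBcel235 annotation, matched by gene ID. Tests had been planned for counts, so the estimated counts were rounded. Genes passed filterByExpr, and edgeR 4.0.16 in R 4.3.3 (TMM, glmQLFit, glmQLFTest, Benjamini-Hochberg over all genes tested, threshold 0.05) was fitted with a mean for each group.

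The main fit used the 30 libraries outside F2 WT normoxia, and comparisons that need that group used all 32 columns as deposited. The deposited F2 WT normoxia columns, times 3, fell below the summed F1 and F3 columns of like number in 0 genes (within 0.05), and in at least 1434 with other pairings. The remainder, of 12555703 and 11633862 counts, is taken as that library by inference. SEs are log2 fold changes divided by the root of the F statistic. No column lacked a sample. Scripts were tested on simulated data.

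Values in every library are given for the 4 members with the highest mean CPM, the 3 with the lowest and 1 with the highest r, and for each comparison the called members of smallest p, up to 3 a direction; of lists, up to 4 genes per direction. Not all of these are printed. msp-76, msp-49, vab-1, spe-44 and fog-1 and single members set beside a count were added after their values were seen. The members, lists and rule were chosen with earlier results of these data known. spe-7, spe-13 and spe-50 matched no gene.

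Intervals and floors cover counting error only. Alternatives were DESeq2 size factors and DESeq2 1.42.0, other filters, the replicate block, fits of the groups alone, library sizes without msp genes, the remainder, and each library left out; chosen after seeing the data were fits without both P0 WT normoxia libraries and later generations without F1.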

Additional observations from a re-analysis of the deposited data

Results flagged for a closer look

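The difference of the hypoxia effect between strains passed the test in F1 for 23 of 30 msp genes, where 8.72% of all genes had a larger effect in hrde-1. All 23 had a larger effect in hrde-1 than in WT. The count was not stable, since it was far lower in every fit with a library left out. The named members were msp-142 with a difference of 2.45 on the log2 scale, msp-51 with 2.16 and msp-77 with 2.04. In msp-51 F1 hypoxia and normoxia stood at 50.9 and 54.1 against 12.2 and 14.3 CPM in hrde-1, and at 42.3 and 55.1 against 47 and 62.6 CPM in WT.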

How the results depend on the processing

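No called fold change of an msp gene changed sign in the settings run. Among values not called some did: with the remainder, the highest log2 fold change in WT F2 hypoxia was 0.006, against -0.61 with the columns, and the lowest F2 difference between strains was -0.20, against 0.74. Counts of called msp genes that moved by over 1.5 times were as follows. With DESeq2 they were 9 for WT F2 hypoxia, 11 and 17 for hrde-1 against WT in P0 and F3 hypoxia, and 13 and 6 for the P0 and F3 differences between strains. With no filter they were 8 for WT F2 hypoxia, 7 for P0 hypoxia hrde-1 against WT, and 3 and 1 for the P0 and F3 differences. With the groups fitted alone they were 28 and 5 for WT F2 and F3 hypoxia, 4 and 0 for P0 and F3 normoxia hrde-1 against WT, 21 and 8 for P0 and F1 hypoxia hrde-1 against WT, and 0 for later hrde-1 normoxia. The remainder gave 0 for WT F2 hypoxia, 2 for F2 normoxia hrde-1 against WT and 1 for the P0 difference. The P0 difference gave 1 with DESeq2 size factors, 1 with at least 5 CPM in 2 libraries, 1 with library sizes without msp genes and 2 with all 32 columns, which gave 1 for the F3 difference. The cause was not tested.

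With 1 library left out, where the lone library of a group is assumed to vary like the others, counts ran from 16 to 25 for WT P0 hypoxia, 0 to 0 for WT F2, 0 to 26 for hrde-1 F1 and 0 to 26 for hrde-1 F3 hypoxia. For hrde-1 against WT they were 27 in P0, 12 to 20 in F1 and 0 to 12 in F3 normoxia, and 0 to 4 in P0, 0 to 22 in F2 and 0 to 11 in F3 hypoxia. Later generations gave 28 to 30 in WT normoxia, 24 to 28 in WT hypoxia, 15 to 28 in hrde-1 normoxia and 19 to 28 in hrde-1 hypoxia. Differences between strains gave 0 to 2 in P0, 0 to 9 in F1, 0 to 1 in F2 and 0 to 28 in F3. The other counts stayed at 0.

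With the replicate block, hrde-1 against WT gave 22 calls in F2 hypoxia and 13 in F3 hypoxia, the F1 difference gave 25, and no count moved by over 1.5 times. Replicate numbers were treated only as names of samples. Deviations of libraries with the same number correlated at -0.17 to 0.51 over 14 comparisons, the highest in hrde-1 F3 hypoxia. With 2 libraries a group this cannot exclude a shared culture or batch behind a number. Without both P0 WT normoxia libraries, a setting chosen after seeing the data, 27 members rose in hrde-1 F1 hypoxia and 25 fell in F1 normoxia hrde-1. Another scaling moved the median of all genes by at most 0.084. Summing members with identical proteins was not run. With 2 libraries a group, and as few as 384 msp counts in a P0 WT normoxia library, single low copies are not resolved.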
